A study of Coccomyxa subellipsoidea C-169 with 6 samples.

Results

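In Coccomyxa subellipsoidea C-169, 61 of 9409 measured genes gave hardly any reads in cultures kept at the CO2 level of air and were read in every culture supplied with extra CO2. They were selected on the measured values themselves. A gene belongs here if its mean over the air cultures was below 2 CPM (the count divided by the sum of its library and multiplied by 1000000) and its value in each high-CO2 culture was at least 5 CPM. These thresholds were met by 72 genes, of which 11 were set aside by identifier. A further 5 genes named with those 11 did not meet them. All differences between the groups in these 61 genes are therefore descriptions, and calls of a fit over all genes are given for them only as counts, from which nothing is read.

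C-169 is a unicellular green alga of the class Trebouxiophyceae. The CG group was cultured with 2% CO2 and the AG group with 0.04% CO2, each for 4 days, and 1 digital gene expression (DGE) library was sequenced from each of 3 biological replicates per group. Both groups were the same strain, in the same mineral medium under continuous light, so that the gas supply is the labelled difference between them, and a single day of culture was sampled. Each library holds the RNA of a whole culture, and more transcript per cell cannot be told apart from more cells that carry it.

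As background, green algae at the CO2 level of air run a carbon-concentrating mechanism, and the supply of carbon can limit their growth. With CO2 in surplus, photosynthesis and growth speed up, and the demand for nitrogen, amino acids and membrane lipids grows with them. Uptake systems and assimilation enzymes for nutrients are often made only in the state that needs them, so that their transcripts can be close to undetectable in another. Most of the 61 genes have no functional description in the sources used here, and they are called by the gene numbers of the deposited table.

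The counts of a library summed to 2674507, 2724210 and 3740989 in CG 1 to CG 3, and to 3965553, 3825993 and 4969639 in AG 1 to AG 3. The deeper AG libraries make a low level in AG easier to see than the same level in CG. CG 1 stood apart from its group. Pearson's r of log2(CPM + 1), across the 8637 genes kept by the filter on low counts, was 0.990 between CG 2 and CG 3. CG 1 gave r of 0.941 with CG 2 and of 0.927 with CG 3, and the AG libraries gave 0.988 to 0.990 among themselves. Against the AG libraries CG 1 gave r of 0.829 to 0.835, whereas CG 2 and CG 3 gave 0.742 to 0.768, so that CG 1 lay nearer to AG. Genes are not independent replicates, and these values describe the libraries only.

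The 61 genes were not silent in air in the strict sense. At least 1 count was found in every AG library for 56 of them, and only 3 (47044, 57150 and 41978) had no count in any AG library. Over the 3 AG libraries together a gene of the set had a median of 15 counts, with a range of 0 to 26, against 143 counts (58 to 8004) over the 3 CG libraries. A count of 0 allows up to 3 counts, which correspond to 0.757, 0.784 and 0.604 CPM in AG 1 to AG 3. In every AG library 10 genes were at or under that limit, namely 47044, 57150, 43836, 60252, 41978, 37832, 16342, 36071, 63829 and 21144. These limits and all intervals below cover counting error only. The description that fits the values is a level near the limit of detection in AG.

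The group means had a median over the 61 genes of 15.6 CPM in CG, with a range of 6.37 to 896 CPM, and of 1.17 CPM in AG, with a range of 0 to 1.97 CPM. No gene had overlapping groups, as the lowest value of any CG library was 5.23 CPM and the highest of any AG library 3.28 CPM, which follows almost entirely from the thresholds. In a fit over all genes (edgeR's quasi-likelihood test, Benjamini-Hochberg adjusted p under 0.05) all 61 passed the filter on low counts and all 61 were higher in CG, where 27.3% of the 8637 genes tested were higher in CG. The study's stricter criteria, a log2 fold change above 1 and an adjusted p under 0.001, were met by 33 of the 61, beside 7.95% of all genes tested. Because the same contrast chose the genes, nothing is read from these shares. The fitted log2 fold change of CG over AG had a median of 3.64 over the 61 genes, of 1.09 over the 2294 other genes that rose and of -0.01 over all genes tested. The median of the set was the same when the 3 genes without AG counts were placed at their lower bound.

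**Figure D1:**
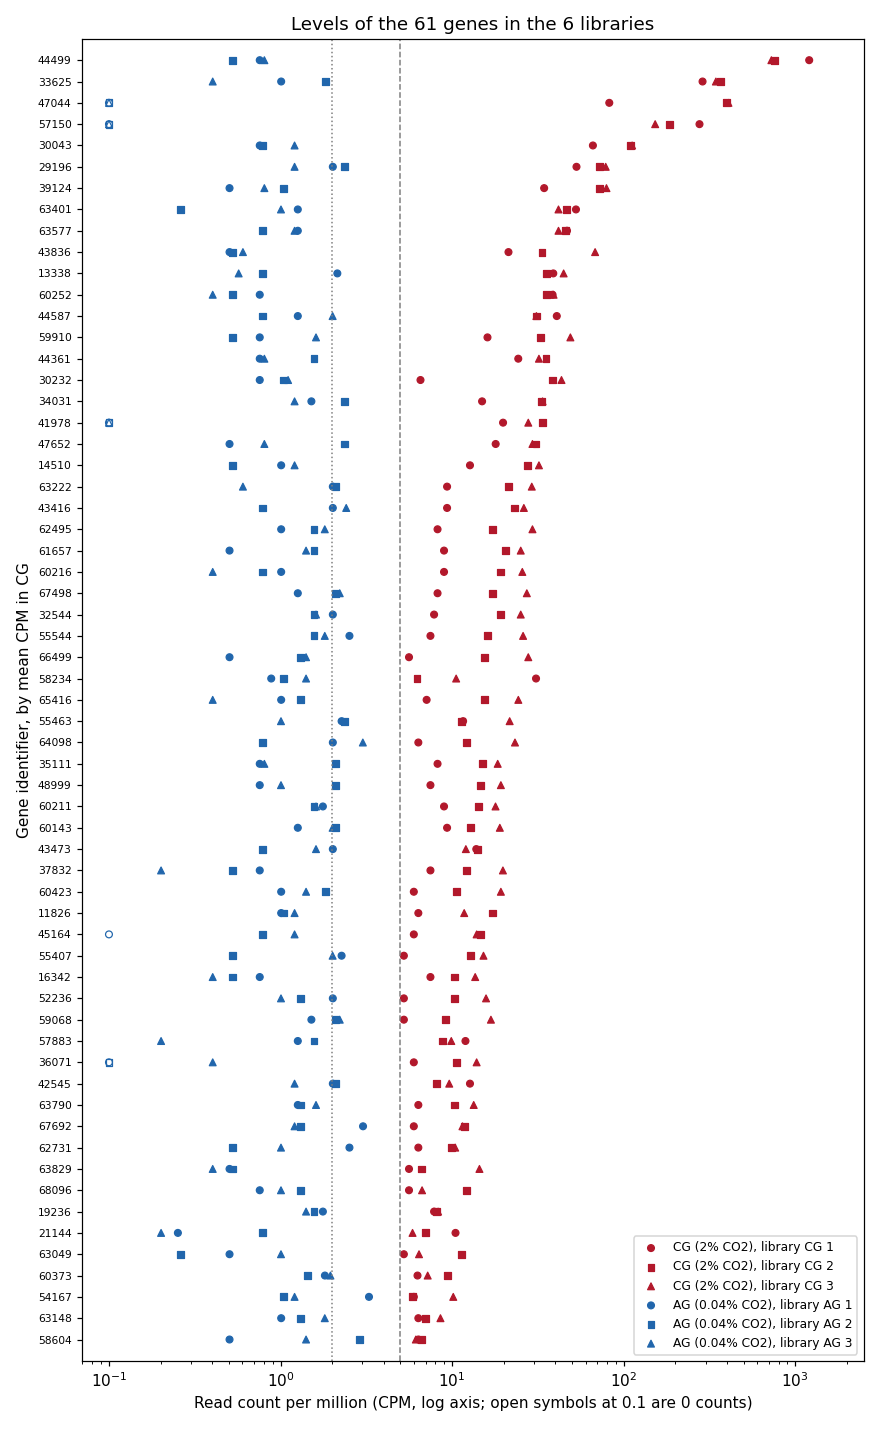
CPM (log axis) of the 61 genes in the 3 CG libraries (red) and the 3 AG libraries (blue), 1 row per gene identifier, ordered by the mean in CG. Open symbols mark 0 counts, and the lines mark the thresholds of 2 CPM (dotted) and 5 CPM (dashed). Of the 61 genes, 4 lie above 100 CPM in CG on average, whereas the AG values stay at or below 3.28 CPM.

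The read share of the set was small in both states and carried by few genes. The 61 genes took 0.269, 0.294 and 0.309% of all counts in CG 1 to CG 3, against 0.00729, 0.00725 and 0.00692% in AG 1 to AG 3. In CG, 59.5% of the summed CPM came from 44499, 33625, 47044 and 57150. Without these 4, the summed level was 841, 1230.1 and 1460.3 CPM in CG 1 to CG 3, and 71.2, 70.2 and 68.0 CPM in AG 1 to AG 3. The mean in CG reached 50 CPM in 7 genes, 20 CPM in 20 and 10 CPM in 49. The ratio of the group means, with the 3 genes without AG counts at their lower bound, had a median of 14.3, was at least 100 in 6 genes and was under 10 in 21. In AG, 829 of the 9409 genes had a mean under 2 CPM, and 628 of these were also under 2 CPM in CG. The 61 genes made up 7.36% of the 829.

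Gene 44499 had the most reads of the set. It was at 1206, 757 and 726 CPM in CG 1 to CG 3, and at 0.757, 0.523 and 0.805 CPM in AG 1 to AG 3. Each AG library held only 2 to 4 counts of it, and the CG libraries 2061 to 3226. The ratio of the means was 1290.2, and the ratio of the summed counts had an exact 95% binomial interval of 654 to 2717. Per length, by the deposited RPKM (reads per kilobase of gene and per 1000000 mapped reads), it averaged 548 ± 164 RPKM in CG and 0.425 ± 0.092 RPKM in AG (SD, n = 3 each). It ranked 154 of 9409 genes in CG, against 8989 in AG. Its product is not described in the sources used here.

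Gene 33625 had the highest level per length. Its RPKM was 533, 679 and 637 in CG 1 to CG 3, and 1.86, 3.38 and 0.744 in AG 1 to AG 3, which put it at rank 120 in CG and 8603 in AG. In reads it was at 288, 367 and 345 CPM in the CG libraries and at 1.01, 1.83 and 0.402 CPM in the AG libraries, a ratio of 309 (192 to 618 for the summed counts). The mean was 333 ± 40.6 CPM in CG and 1.08 ± 0.72 CPM in AG (SD, n = 3 each). It is 541 nt long, where the length of a gene is that implied by its count and RPKM.

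The 3 genes without any AG count differed widely in CG. Gene 47044 was at 82.4, 399 and 408 CPM in CG 1 to CG 3, and gene 57150 at 277, 184 and 153 CPM. Gene 41978 was at 19.8, 33.8 and 27.8 CPM in the same libraries. Against 3 counts over the AG libraries together, which is 0.235 CPM, the CG means of 296 CPM for 47044, 205 CPM for 57150 and 27.1 CPM for 41978 were at least 1261-fold, at least 870-fold and at least 115-fold higher. In its lowest CG library each of them was below these ratios. CG 1 was the lowest CG library for 47044 and 41978 and the highest for 57150. Per length, 47044 averaged 144 ± 90.0 RPKM and 57150 averaged 125 ± 39.3 RPKM in CG (SD, n = 3). Gene 36071 came closest to these 3, with 5.98, 10.6 and 13.9 CPM in the CG libraries and with 2 counts in AG 3 as its only AG reads. Its ratio of summed counts was 67.7 with an exact 95% interval of 18.2 to 567.

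Gene 34031 completed the 5 highest levels per length. It is only 249 nt long by the deposited values and averaged 109 ± 42.7 RPKM in CG and 6.79 ± 2.38 RPKM in AG (SD, n = 3 each). In reads it was at 15.0, 33.0 and 33.7 CPM in CG 1 to CG 3, and at 1.51, 2.35 and 1.21 CPM in AG 1 to AG 3. Its AG level of 6.79 RPKM was the highest of the set, so that a threshold in CPM let in short genes whose transcript level per length in air was not the lowest.

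**Figure D2:**
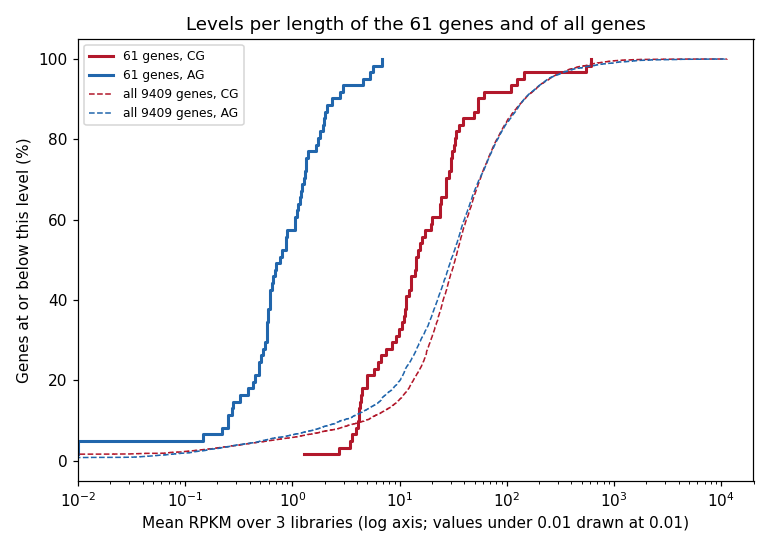
Cumulative share of genes (y axis, percent) at or below a mean RPKM over the 3 libraries of a group (log axis), for the 61 genes in CG (red) and AG (blue) and for all 9409 genes (dashed). The median of the set lies at 14.3 RPKM in CG and at 0.767 RPKM in AG, while the curves of all genes nearly coincide, with medians of 32.9 RPKM in CG and 30.1 RPKM in AG.

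Most of the set stayed below the typical gene even at 2% CO2. The median of the set was 14.3 RPKM in CG and 0.767 RPKM in AG, beside 32.9 RPKM in CG and 30.1 RPKM in AG for all genes. Only 12 of the 61 were above the median gene in CG. The lowest was 58604, a gene of 4932 nt, at 1.29 ± 0.05 RPKM in CG and 0.324 ± 0.243 RPKM in AG (SD, n = 3 each). The length had a median of 1296 nt in the set, 1428 nt in the other genes that rose and 1221 nt in all genes. Under 500 nt were 11.5% of the set and 9.33% of all genes, and over 3000 nt were 14.8% of the set and 7.85% of all genes.

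A functional description was at hand for 4 of the 61 genes, in nitrogen and lipid metabolism and in transport. Glutamine synthetase, the enzyme that joins ammonium to glutamate and so brings inorganic nitrogen into amino acids, was represented by 30043. The paper counts 4 homologs of this enzyme in C-169, of which 3 rose significantly. The others are not shown here, so the levels of 30043 do not stand for the enzyme as a whole. Gene 30043 was low in AG and well read in CG. It was at 66.2, 109.8 and 112.0 CPM in CG 1 to CG 3, and at 0.757, 0.784 and 1.21 CPM in AG 1 to AG 3. All CG libraries lay far above all AG libraries, with CG 1 the lowest of its group, and the ratio of the means was 105 (59.3 to 202 for the summed counts). Its fitted log2 fold change was 6.54 ± 0.33 (SE). Per length it averaged 61.5 ± 16.5 RPKM in CG and 0.586 ± 0.162 RPKM in AG (SD, n = 3 each), so that in CG it was above the median gene.

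Gene 47044, one of the 3 without AG counts, carries the description fatty acid desaturase 8. In Arabidopsis the enzyme of that name is a chloroplast omega-3 desaturase, which turns fatty acids with a pair of double bonds in membrane lipids into trienoic ones. Its 3 CG libraries were the most unequal of the 5 members with the highest mean CPM, at 82.4 CPM in CG 1 against 399 and 408 CPM in CG 2 and CG 3. The deposited counts of this gene were fractional in CG 1 and CG 3 (220.5 and 1526.5). The counting may thus have divided reads between 47044 and a similar sequence, although the paper describes counting only reads matched to a single gene. How much of the level belongs to 47044 alone was not tested.

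Gene 14510 is described as sphingoid base hydroxylase 1, a name that belongs to sphingolipid synthesis. No other gene of that pathway is shown here. The Arabidopsis enzyme of that name adds a hydroxyl group to the long-chain base of sphingolipids, which are lipids of the plasma membrane. It was at 12.7, 27.5 and 32.1 CPM in CG 1 to CG 3, and at 1.01, 0.523 and 1.21 CPM in AG 1 to AG 3. The ratio of the means was 26.4, with 15.0 to 52.3 for the summed counts, and CG 1 was at 0.427 of the mean of CG 2 and CG 3.

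Gene 13338 is described as bidirectional amino acid transporter 1, a carrier that in Arabidopsis can move amino acids both into and out of a compartment. It was steady in CG, at 38.9, 35.5 and 44.7 CPM in CG 1 to CG 3, and low in AG, at 2.14, 0.784 and 0.570 CPM in AG 1 to AG 3. Part of its counts were fractional too. Another 3 genes at hand carry the same description, and their counts were also fractional in part. How far reads were divided among similar sequences was not tested, so the levels of these genes may not be separate. As deposited, the 3 genes did not move as a family. Of these, 13921 rose (log2 fold change 2.31 ± 0.20, SE, edgeR adjusted p = 0.000162) and 48735 rose (1.33 ± 0.13, adjusted p = 0.000269). The third, 13676, is the annotated neighbour of 13338 and fell (-2.57 ± 0.38, edgeR adjusted p = 0.0015), with 25.1, 9.30 and 8.38 CPM in CG 1 to CG 3, and 87.0, 71.6 and 75.1 CPM in AG 1 to AG 3. Per length, 13338 was at 23.6, 21.5 and 27.1 RPKM in CG 1 to CG 3 and at 1.30, 0.476 and 0.346 RPKM in AG 1 to AG 3, against 15.6, 5.79 and 5.22 RPKM of 13676 in CG and 54.2, 44.6 and 46.8 RPKM in AG. Of this pair 13338 was thus the higher in every CG library and 13676 in every AG library. The descriptions at hand cover only genes that the study had called, so that unchanged genes of this family would not be among them.

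Outside these named genes, the set held well-read genes of unknown product with closely matching CG libraries. Gene 60252 was at 38.5, 35.6 and 39.0 CPM in CG 1 to CG 3, and at 0.757, 0.523 and 0.402 CPM in AG 1 to AG 3, a ratio of 67.3. Gene 63401 was at 52.7, 46.3 and 41.7 CPM in the CG libraries and at 1.26, 0.261 and 1.01 CPM in the AG libraries. At the other end, 54167 and 58604 had the smallest ratios of the means, 3.98 and 3.99. Gene 54167 reached 3.28 CPM in AG 1, and its annotated span overlaps that of 67133, a gene at 111 to 118 CPM in CG and 134 to 151 CPM in AG. Gene 32544 likewise overlaps 65073, at 123 to 142 CPM in CG and 105 to 113 CPM in AG. Reads of both directions were counted on transcripts, so that any stretch shared by such overlapping genes could mix their reads. Only the annotated spans were compared, and whether the transcripts share sequence was not tested. Fractional counts occurred in 6 of the 61 genes (47044, 13338, 30232, 58234, 43473 and 60373), or 9.84%, beside 12.8% of all genes.

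The 61 genes varied among the CG libraries more in 1 direction than in the other. CG 1 was the lowest CG library in 46 of the 61 (75.4%), the highest in 9 and between the others in 6. Among all genes tested with reads in the CG libraries CG 1 was the lowest in 45.2% and the highest in 41.4%, and among the other genes that rose it was the lowest in 65.6%. The level in CG 1 relative to the mean of CG 2 and CG 3 had a median of 0.538 over the set, 0.855 over the other genes that rose and 0.984 over all genes tested. In 28 of the 61 genes CG 1 was below 0.5 of that mean. With 1 such library there is no replicate of its state, and no test can be made of it. The CG values, with those of CG 1, also chose the set. The other genes that rose were not matched to it for size of change, with a median log2 fold change of 1.09 against 3.64. The difference between these ratios is therefore not read as a trait of the set.

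**Figure D3:**
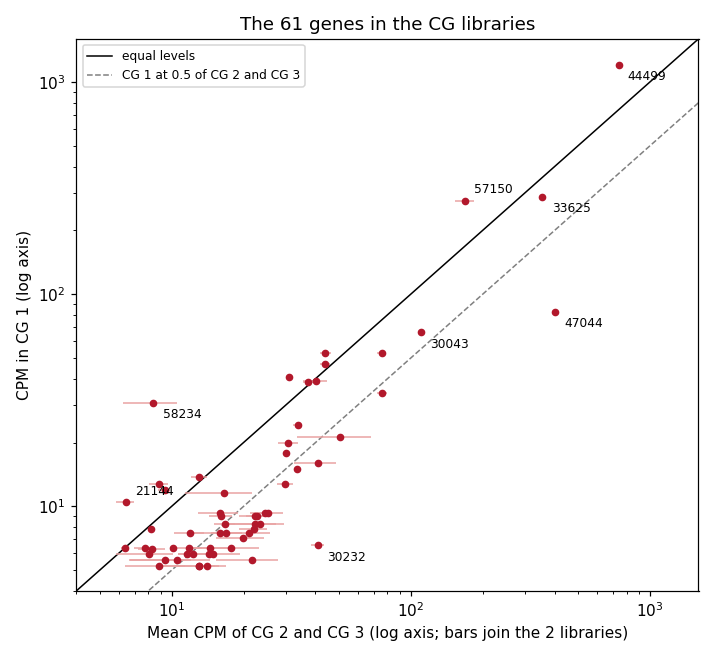
CPM in CG 1 (y axis) against the mean CPM of CG 2 and CG 3 (x axis), both on log axes, for the 61 genes, with bars that join CG 2 and CG 3. The solid line marks equal levels and the dashed line a ratio of 0.5. Of the 61 points, 28 lie below the dashed line, and 44499, 57150, 58234 and 21144 lie furthest above the solid one.

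The inequality was spread over the set and had clear exceptions. With the set ordered by mean CPM over all libraries, the lowest 21 genes had a median CG 1 ratio of 0.597, the middle 20 of 0.397 and the highest 20 of 0.673. CG 1 was the lowest CG library in 16, 17 and 13 genes of these groups. The smallest ratio was that of 30232, at 6.54 CPM in CG 1 against 38.4 and 43.4 CPM in CG 2 and CG 3. The opposite was seen in 58234, at 30.8 CPM in CG 1 against 6.24 and 10.6 CPM in CG 2 and CG 3, a ratio of 3.67. Besides 58234, 44499, 57150 and 21144 were at least 1.5 times higher in CG 1. The order CG 1, CG 2, CG 3 from low to high was found in 36 of the 61 genes (59.0%), in 40.0% of the other genes that rose and in 26.4% of all genes tested. For the 11 set-aside genes that met the thresholds the median CG 1 ratio was 0.657. The part of what sets CG 1 apart in these levels was not tested. Without CG 1 the thresholds would be met by 108 genes, all 61 among them.

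Positions along the genome, which the selection did not use, were taken from the RefSeq annotation of assembly Coccomyxa subellipsoidae v2.0, to which 60 of the 61 genes were matched (not 21144). Of these, 8 (13.3%) lay next to another gene that met both thresholds, whether of the set or set aside, beside 1.41% of all genes tested and 1.66% of the other genes that rose. In contrast, 32 of the 60 (53.3%) had an adjacent gene that rose, which is close to the 53.7% of the other genes that rose and above the 42.4% of all genes tested. These shares are descriptions of a small number of runs. The 110 distinct neighbours in the table that are not of the set include 32 that rose, 23 that fell, 40 that passed neither call and 15 that were too low to be tested. Over all 8637 genes tested, 2355 rose and 2157 fell in the same fit.

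The longest run held 3 genes of the set in a row, 47652, 16342 and 63829. Gene 47652 was at 17.9, 30.8 and 29.4 CPM in CG 1 to CG 3, and at 0.504, 2.35 and 0.805 CPM in AG 1 to AG 3. Gene 16342 was at 7.48, 10.3 and 13.6 CPM in the CG libraries and at 0.757, 0.523 and 0.402 CPM in the AG libraries. Gene 63829 was at 5.61, 6.61 and 14.4 CPM in the CG libraries, against 0.504, 0.523 and 0.402 CPM in the AG libraries. CG 1 was the lowest CG library for all 3. The next gene, 63830, was read in both states and rose (log2 fold change 2.55 ± 0.37, SE, edgeR adjusted p = 0.0014), while 47651 on the other side had an adjusted p of 0.846 in the same fit.

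A second run joined 29196 and 63577 to the urea transporter 53548, one of the set-aside genes, which imports urea as a nitrogen source. The transporter was at 435, 669 and 655 CPM in CG 1 to CG 3, and at 0, 0.261 and 0 CPM in AG 1 to AG 3. Next to it, 29196 was at 53.1, 72.7 and 78.6 CPM in the CG libraries and at 2.02, 2.35 and 1.21 CPM in the AG libraries. Gene 63577 followed at 46.7, 45.9 and 41.7 CPM in CG and 1.26, 0.784 and 1.21 CPM in AG. The 3 neighbours thus shared the direction but not the profile within CG, since CG 1 was the lowest library for 53548 and 29196 and the highest for 63577. The gene beyond, 15875, had an adjusted p of 0.123.

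The other runs were pairs. The sphingoid base hydroxylase 14510 lay next to 36071, which is described above with its 2 AG counts. The highly read 33625 lay next to the sodium/dicarboxylate symporter 17172, a set-aside carrier of organic acids that did not meet the AG threshold, with 722, 972 and 936 CPM in the CG libraries and 2.77, 4.44 and 4.02 CPM in the AG libraries. Gene 61657, at 8.97, 20.6 and 25.1 CPM in CG and 0.504, 1.57 and 1.41 CPM in AG, lay next to 13773, a set-aside gene at 8.23, 15.1 and 19.5 CPM in CG and 0.504, 0.261 and 1.61 CPM in AG. Both were in the order CG 1, CG 2, CG 3 from low to high.

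**Figure D4:**
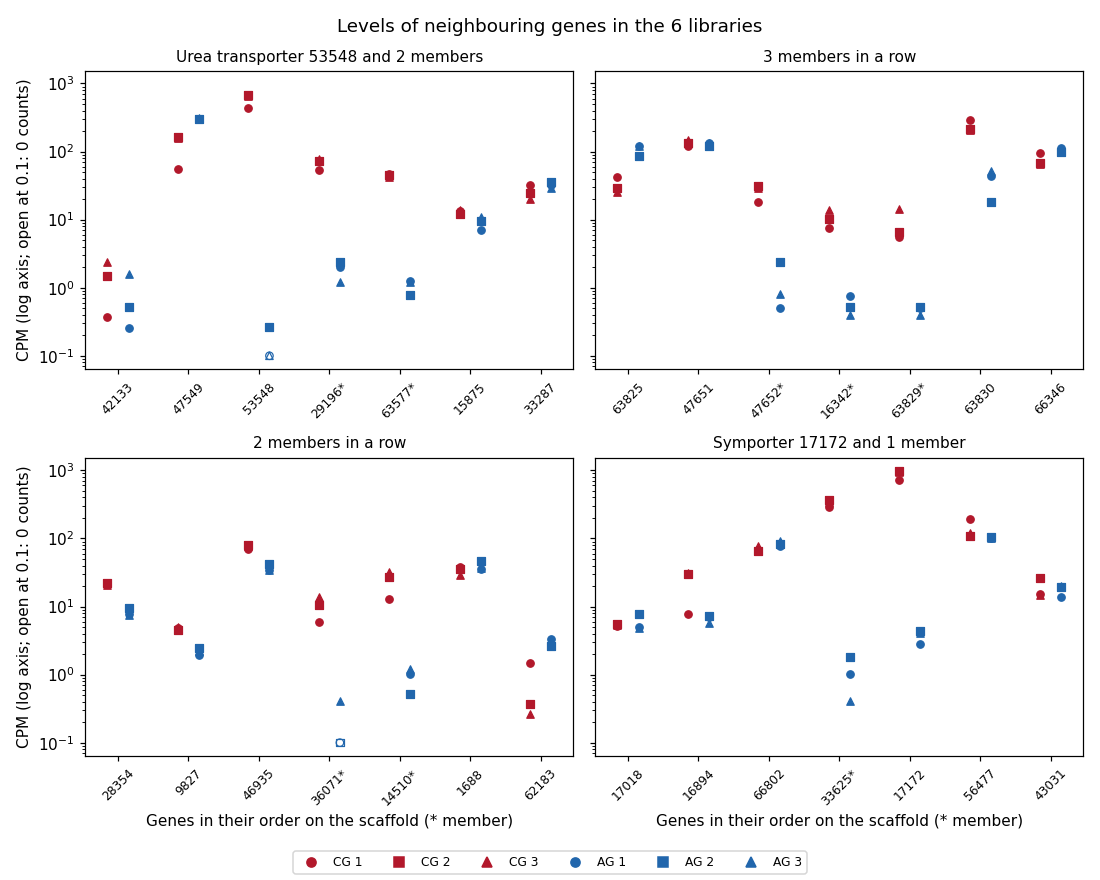
CPM (log axis) in the 3 CG libraries (red) and the 3 AG libraries (blue) of 7 consecutive annotated genes around each of 4 runs, in their order on the scaffold, with open symbols for 0 counts and an asterisk on genes of the set. In each panel the genes of the set lie at or below 2.35 CPM in every AG library and above 5 CPM in every CG library, as the thresholds ask, whereas several flanking genes lie at similar levels in both groups.

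Some genes of the set stood beside metabolic genes that were read in both states. Gene 39124 lay next to the phosphoenolpyruvate carboxylase gene 52173, whose enzyme adds inorganic carbon to phosphoenolpyruvate. Gene 39124 was at 34.4, 72.3 and 79.4 CPM in CG 1 to CG 3, and at 0.504, 1.05 and 0.805 CPM in AG 1 to AG 3, while 52173 was at 1644, 2483 and 2538 CPM in CG and 187, 221 and 200.1 CPM in AG. Both were lowest in CG 1 within their group. Gene 34031 lay next to 48592, an NAD(P)-linked oxidoreductase that rose by 4.83 ± 0.30 on the log2 scale (SE, edgeR adjusted p = 4.6e-05). Gene 63049 lay next to the peroxiredoxin gene 23522, whose product reduces peroxides and which rose by 4.80 ± 0.28 (SE, adjusted p = 3.81e-05). Glutamine synthetase 30043 lay next to 43195, which rose by 2.97 ± 0.27 (SE, adjusted p = 0.000205).

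Neighbours of the set also fell. Gene 65416, at 7.10, 15.4 and 24.3 CPM in CG 1 to CG 3, and at 1.01, 1.31 and 0.402 CPM in AG 1 to AG 3, stood next to the cytochrome P450 gene 65415. Cytochromes P450 are haem enzymes that oxidise small molecules, and 65415 was at 86.2, 99.7 and 123 CPM in CG and at 1700, 1884 and 1080.4 CPM in AG (log2 fold change -4.00 ± 0.28, SE, edgeR adjusted p = 6.02e-05). Beside the most read member, 44499, one neighbour fell (31063, log2 fold change -1.55 ± 0.10, SE, adjusted p = 4.44e-05) and the other, 19229, had an adjusted p of 0.147. Neither of them passed the test for a rise.

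The thresholds cut through a continuous range. Just inside the AG threshold were 55544, 64098 and 59068, with a mean of 1.97, 1.94 and 1.94 CPM in AG, and just outside it were 57113, 37186 and 46353, at 2.01, 2.03 and 2.06 CPM. Gene 37186 would have been among the well-read members, with 54.6, 94.0 and 99.2 CPM in CG 1 to CG 3. Just inside the CG threshold 4 genes were tied, 52236, 55407, 59068 and 63049, each at 5.23 CPM in CG 1. Just outside it 6 genes were tied, 15651, 35067, 39121, 41519, 58685 and 59086, each at 4.86 CPM in CG 1. In all of these tied genes CG 1 was the lowest CG library.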

How the data were processed

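RNA of 3 CG and 3 AG cultures was measured by DGE sequencing. Clean reads had been aligned by the authors to C-169 transcripts with Bowtie (version not given in the sources used here), with 1 mismatch allowed and hits of both directions counted. The deposited table holds the resulting values, treated here as estimated counts because 1202 genes have fractions (tolerance 0.01) whose origin is not explained. The paper describes the counted reads as unambiguous, each with a unique gene match. The deposited RPKM values are the authors' normalization of these counts per kilobase and per 1000000 mapped reads. The genome build behind the table is not given in the sources used here, and RefSeq positions served for gene order only. Columns with the authors' log2 fold changes and FDR values, and their group means, were not used.

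CPM were computed from column sums. For the fit over all genes, rounded counts entered edgeR 4.0.16 in R 4.3.3 (TMM, factors 0.961 to 1.04, filterByExpr, robust quasi-likelihood fit, adjusted p under 0.05), CG against AG, which kept 8637 genes, with a common biological coefficient of variation of 0.186. Each SE of a fitted log2 fold change was derived from that test. It is the absolute log2 fold change divided by the square root of the test's F statistic. The fit was tested on simulated data. DESeq2 1.42.0, limma 3.58.1 on log2(RPKM + 1), other scalings, filters and thresholds, a replicate block and leaving out each library were the alternatives. Other software was Python 3.11.15, scipy 1.17.1, matplotlib 3.10.9, numpy 2.4.6 and pandas 2.3.3. Library sums of 2674507 to 4969639 counts are the depth behind each value. The members and lists were chosen with earlier results of these data known.

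Genes named are those with a description, the 5 highest by mean CPM and by mean RPKM in CG, those without AG counts, the 3 nearest to each threshold on either side with any ties, members adjacent to each other, and their neighbours. Of the other members, 60252, 63401, 54167, 58604, 32544, 30232, 58234, 61657, 39124, 63049 and 65416 were chosen after their values or neighbours were seen. A search by product name had been planned, but the reference names no products, so descriptions came from a part of the study's sheet of enriched terms and from its pathway drawing and text. Sequences and coordinates are not shown.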

Additional observations from a re-analysis of the deposited data

How the results depend on the processing

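Since the same contrast chose the 61 genes, their calls say nothing of stability. The number called higher in CG was 61 under every other scaling, filter and tool run (edgeR, DESeq2, limma) and without any single library, except without AG 3, where it was 60. The study's stricter criteria left 687 genes and 33 of the 61. The median log2 fold change of the set was 2.69 with limma on log2(RPKM + 1), whose added 1 shrinks low levels, 3.17 with a prior count of 2, and 3.52 to 3.91 with 1 library left out. The genes that rose numbered 1825 to 2962 with 1 library left out. With the replicate number as a block, 2098 genes rose, all 61 among them, with a median of 3.58. Deviations of libraries with the same number correlated at -0.032, 0.035 and -0.048, which gave no sign of pairing by number. With 3 libraries per group, these values cannot exclude that libraries of the same number were handled together.

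Membership depended on the thresholds. It was 21 genes at an AG mean under 1 CPM, 152 at under 4 CPM, 21 at 10 CPM or more in every CG library, 111 at 2.5 CPM or more, 37 with every AG library under 2 CPM, and 60 to 108 with 1 library left out, where the 108 were those without CG 1. CPM on TMM-scaled library sizes gave 59 genes, and 55 remained when genes with fractional counts were left out. With CG 1 left out of the calls, a choice made after the data had been seen, 38 of the 60 placed genes (63.3%) had an adjacent gene that rose, beside 51.4% of all genes tested. The share among the other genes that rose was not computed for these calls, so nothing particular to the set is read from this difference. With genes that start within 5 kb in place of adjacent genes, and the calls of all libraries, 22 (36.7%) had one that rose, beside 38.6% of the other genes that rose and 30.0% of all genes tested. Depth sets the lower limit of a level, and 3 counts in an AG library are worth 0.604 to 0.784 CPM.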

Other observations

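Leaving CG 1 out of the selection added 47 genes that were read in CG 2 and CG 3 and nearly unread in AG. Among them, 61172 and 58780 had equal values in every library, so that their reads cannot be told apart here. The best read of them was 65484, at 3.37 CPM in CG 1, 15.4 CPM in CG 2 and 19.0 CPM in CG 3, against 2.52, 1.83 and 1.01 CPM in AG 1, AG 2 and AG 3. Gene 41519 was at 4.86, 9.54 and 16.3 CPM in the CG libraries and at 0.252, 0.784 and 0 CPM in the AG libraries. Gene 43409 had no count in any AG library and was at 1.12, 9.73 and 5.75 CPM in the CG libraries, with fractional counts in CG 2 and CG 3.

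Among genes with at least 30 counts over the 6 libraries, 133 were identical to another gene in every library, in 35 sets. None of the 61 genes was among them. The set of 26329 comprised 29 genes with the same fractional values, 22.2, 22.1 and 20.9 CPM in CG 1, CG 2 and CG 3, and 7.82, 9.55 and 7.42 CPM in AG 1, AG 2 and AG 3. How these counts came to be equal was not tested, and the reads of such genes cannot be told apart here. Of these genes, 2 are among the neighbours that rose, 26329 beside 60252 and 29058 beside 63401. Without such identical genes 31 in place of 32 of the 60 placed genes had an adjacent gene that rose. The shares of the other genes that rose and of all genes tested were not computed without them, so this count has no like background. This count misses genes that are only nearly identical. Gene 46935, which rose beside 36071, was at 70.1, 79.7 and 78.0 CPM in CG 1 to CG 3. Genes 49269, near 60252, and 47472, near 63401, were at 70.1, 79.8 and 78.1 CPM. Gene 36071 also lay beside 14510, a gene of the set.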
